A study of Triticum aestivum with 3 samples.

Results

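The small RNA families numbered miR5048 to miR5090 were followed through degradome libraries of wheat leaves. Members were all lines of the 3 deposited tables whose small RNA is named miR5048 to miR5090 (or MIR in place of miR), a rule on names alone. They came to 544 pairs of a small RNA and a transcript, of 12450 pairs in all, with 50 small RNA names and 376 transcripts. Pairs with a small RNA or a transcript in common often list the same reads, so such pairs whose counts differed by at most 20% were merged into 1 degradome signal and counted once. This left 256 signals of 4574, and they held 2391 of 55312 reads, or 4.32%.

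The study asked which transcripts are cut under miRNA guidance when protein folding in the endoplasmic reticulum of wheat is disturbed. Leaves of Triticum aestivum seedlings were taken after 2 days without treatment (control), with dithiothreitol (DTT), or with DTT and tauroursodeoxycholic acid (DTT+TUDCA), and every group had 3 independent biological replicates. DTT is a reducing agent that breaks disulfide bonds and so disturbs folding of secreted proteins, while TUDCA, a conjugated bile acid, acts as a chemical chaperone that eases this folding load. No genotype, cultivar or dose was given in the sources used here, and leaves hold several cell types that such libraries do not separate.

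A plant miRNA guides an Argonaute protein to a matching transcript, which is then sliced, and the downstream fragment keeps a 5′ monophosphate. Degradome sequencing ligates an adapter to such ends and so counts cut or decaying transcripts, not the small RNA itself. Family numbers are given by the registry in order of submission, so neighbouring numbers need not be related in sequence. Many of the numbers above the long conserved families come from surveys of 1 grass or a few, and their targets are less settled than those of families shared by most land plants. The prefixes name the species of the registry entry: hvu is barley, osa rice, tae wheat, bdi Brachypodium distachyon and ata Aegilops tauschii. The endings (such as L+2R-2, or p5 and p3 for an arm of a precursor) are printed as deposited and are not explained in the sources used here.

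Transcripts carried 4 kinds of identifier, and none of them matched the reference gene table, so no gene name or role is given. Most names starting with Traes state a chromosome arm, such as 4AL for the long arm of chromosome 4A, and TRAES3BF names state chromosome 3B. Names such as Novel08021 state no position and are called unplaced below, and EPlTAEG names state none either. Of the members' reads, 50.0% lay on unplaced transcripts (106 signals), 47.0% on Traes transcripts (125 signals), 1.88% on TRAES3BF names and 1.17% on EPlTAEG names. Over all 4574 signals the shares were 22.2% unplaced and 70.7% Traes. The unplaced share was 63.2% for the 435 signals of miR1117 to miR1139 and 65.7% for the 187 signals of miR9650 to miR9799, so a high share on such transcripts was not particular to miR5048 to miR5090. These shares are descriptions of read totals and were not tested.

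The 9 libraries held 11253643 to 13006162 reads, as recovered from the scaled values in the tables, and levels are given below as reads per 10M library reads. Of the 256 signals, 155 (60.5%) had 3 reads or fewer, 79 had a single read and 115 were seen in 1 library. The median was 3 reads per signal, as it was over all signals, where 61.6% had 3 reads or fewer. At the other end 49 signals (19.1%) had 10 reads or more, against 15.5% of all signals, 10.6% of miR1117 to miR1139 and 18.7% of miR9650 to miR9799. Reads in all 9 libraries were found for 16 of the 256 member signals and 174 of all 4574 signals. They were found for 9 of 435 signals of miR1117 to miR1139 and 4 of 187 of miR9650 to miR9799. The 3 strongest signals held 18.5% of the members' reads, the 10 strongest 43.0% and the 20 strongest 59.8%. Most of what follows therefore rests on a small number of transcripts. Signals seen under 1 treatment alone were weak: the 40 of control had at most 4 reads each, the 35 of DTT at most 6 and the 58 of DTT+TUDCA at most 6. The same counts were not made over all 4574 signals, so they are no result about these families.

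**Figure D1:**
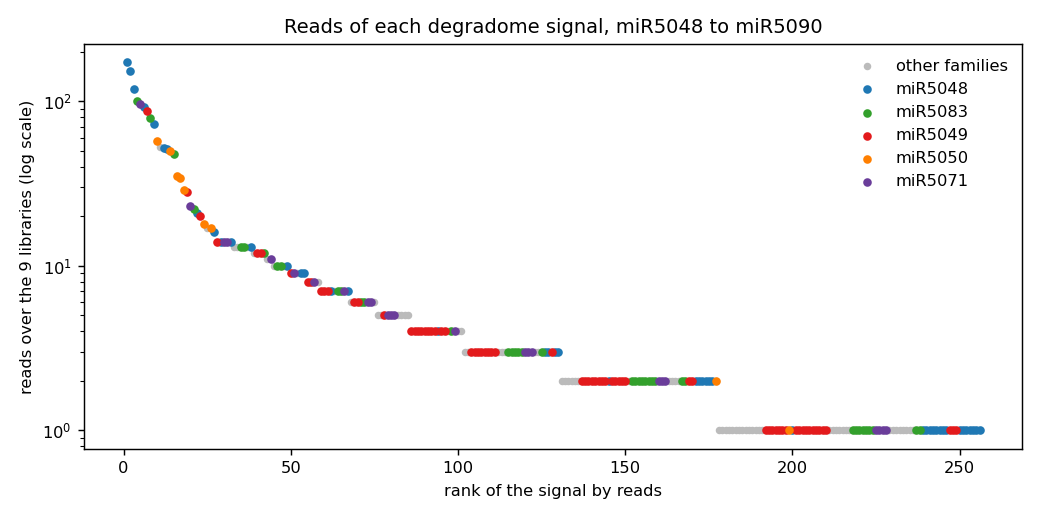
Reads of each of the 256 signals over the 9 libraries (log scale) against rank, coloured for the 5 families with the most reads. The strongest signal had 172 reads and 79 signals had 1 read each, which form the lowest row of points.

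Of the 43 numbers in the range 16 had a signal, and 9 families had 10 reads or more. The order by reads was miR5048 (877 reads, 45 signals), miR5083 (384, 39 signals), miR5049 (353, 69 signals), miR5050 (243, 9 signals), miR5071 (232, 24 signals), miR5054 (94, 8 signals), miR5072 (92, 22 signals), miR5059 (63, 16 signals) and miR5079 (40, 14 signals). The other 7 families, miR5077, miR5070, miR5062, miR5067, miR5064, miR5076 and miR5084, had 1 to 3 reads each. The first 5 families stood for 36.7%, 16.1%, 14.8%, 10.2% and 9.70% of the reads. This order depended on counting shared reads once: with every listed pair counted, miR5083 came first with 1700 of 5155 reads. In miR5083, the signals of 100 and 79 reads each appeared on the same 7 transcripts.

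A merged signal is called by its strongest line. By the species in that name, barley entries held 1029 reads in 81 signals, rice entries 752 in 102, wheat entries 444 in 42, Brachypodium entries 160 in 27 and Aegilops entries 6 in 4. Signals called by a wheat name thus held 18.6% of the reads, and signals that list a wheat name anywhere 25.9% (619 reads in 47 signals). Mature names (miR) held 1396 reads in 137 signals, and names of precursor arms (MIR with p5 or p3) 995 reads in 119 signals. Signals called by a precursor arm thus held 41.6% of the reads, and signals that list one anywhere 48.9%. The difference came from barley-named miR5048 signals that also list tae-MIR5048-p3_1ss16TG, among them those of 92 reads on Novel08021 and 52 on Traes_5BL_0D0ED345E.

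Summed over all members, the control libraries had 187, 205 and 251 reads per 10M, the DTT libraries 241, 179 and 146, and the DTT+TUDCA libraries 196, 241 and 271. The means were 214 ± 32.6, 188 ± 48.1 and 236 ± 37.8 (SD, n = 3 each). The 3 treatments overlapped, and the DTT libraries spread most, from the lowest of all 9 to a level near the top. As a share of all signal reads in a library, the members held 4.62%, 4.33% and 5.50% in the control libraries. The shares were 4.31%, 3.66% and 3.94% in DTT and 3.86%, 4.23% and 4.62% in DTT+TUDCA. On this scale every DTT library lay below every control library, though the nearest pair (4.31% and 4.33%) nearly met, and DTT+TUDCA overlapped both. The shares were not tested. The number of member signals seen was 72 to 78 in control, 59 to 87 in DTT and 86 to 100 in DTT+TUDCA. Reads over all signals likewise ran from 5091 to 5863 in control and from 6502 to 7430 in DTT+TUDCA. How many of all signals were seen per library was not counted. DTT replicate 3 had the fewest member signals and the fewest member reads (188), and it was also the lowest library for reads over all signals (4771). A sum over cut fragments cannot tell more cleavage from more of the transcript, since no transcript levels were used here.

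At the level of families, miR5048 had 97.4 ± 30.4 reads per 10M in control, 53.6 ± 27.0 in DTT and 85.1 ± 23.4 in DTT+TUDCA (SD, n = 3 each), with overlapping libraries. miR5083 had 26.2 ± 3.23, 36.3 ± 4.28 and 39.4 ± 7.89, and every library of both treatments lay above every control library. miR5049 had 24.1 ± 5.79, 35.7 ± 11.2 and 33.9 ± 4.30, and miR5050 23.9 ± 8.82, 21.4 ± 5.22 and 19.8 ± 9.07, with overlap in both families. miR5071 had 20.4 ± 2.64, 12.4 ± 7.27 and 29.0 ± 7.17, and its DTT+TUDCA libraries lay above all DTT libraries. miR5054 had 6.46 ± 3.73, 6.83 ± 0.800 and 11.8 ± 2.29, and its DTT+TUDCA libraries lay above those of the other 2 treatments. A single signal held 41.4% of the miR5071 reads and another 56.4% of the miR5054 reads. Each of these signals was itself higher in every DTT+TUDCA library than in every DTT library, and the families were not summed without them. No p-value was computed for sums over a family, so these orders are descriptions. Reads over all signals were themselves higher in every DTT+TUDCA library than in every control library. Families were not set against those totals, and families outside the range that separate in this way were not counted. The separations are therefore no result about these families.

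**Figure D2:**
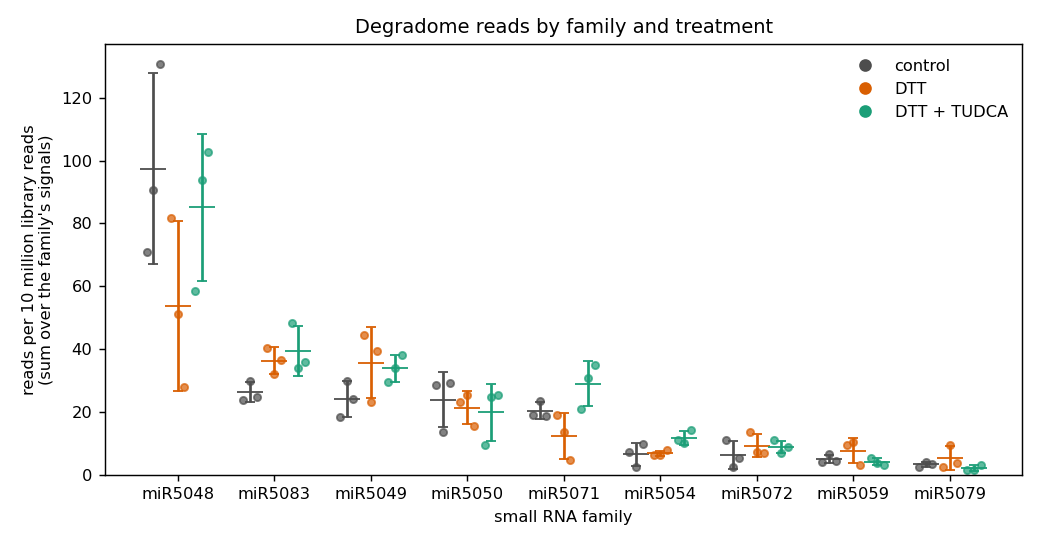
Reads per 10M library reads of the 9 families with 10 reads or more, with each library as a point and the mean ± SD of 3 libraries as a bar, for control, DTT and DTT+TUDCA. The spread was widest for miR5048, whose control libraries ran from 70.9 to 131, and miR5083 was lowest in the 3 control libraries.

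The counts were tested with edgeR's quasi-likelihood test over all signals that passed a filter on low counts, with Benjamini-Hochberg adjustment over all of these and a threshold of 0.05. Of the 256 member signals 16 entered at least 1 of the 3 comparisons and 10 entered all 3. They were 7 of miR5048, 3 of miR5050, 3 of miR5083 and 1 each of miR5049, miR5054 and miR5071, with 1315 reads or 55.0% of the members' total. The weakest tested signal had 34 reads (hvu-MIR5050-p5 on Traes_4AL_8758B00CD) and the strongest untested one 35 (hvu-MIR5050-p5 on Novel09814). The other 240 signals passed the filter in none of the comparisons. The filter looks at the level in each library and not at total reads alone. A signal that enters because it is high under 1 treatment is more likely to differ, so the counts below describe the tested signals alone.

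The miR5048 family led through 5 sets of transcripts. On Novel08021, Novel06234, Novel11267, Novel09793 with Traes_4AL_B8348D56E, and Traes_5BL_0D0ED345E, 10 signals of at least 10 reads held 755 reads, or 86.1% of the family. Barley hvu-miR5048a_L+2R-2 and wheat tae-miR5048-5p_L+2R-2 were both listed on 4 of the 5 sets with 10 reads or more, but with different read numbers, so they were kept as separate signals. Novel08021 alone collected 287 reads in 5 signals of the family (172, 92, 13, 7 and 3 reads) under 10 small RNA names, the most reads of any transcript with a member. Whether these are neighbouring cut sites was not tested, since the tables list no positions.

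The strongest signal of all was tae-miR5048-5p_L+2R-2 on Novel08021, with 14, 29 and 37 reads in control, 25, 9 and 10 in DTT, and 8, 13 and 27 in DTT+TUDCA. Both treatments overlapped control, whose replicates themselves lay far apart. Its mean was 22.5 ± 10.9 per 10M in control, 11.6 ± 7.15 in DTT and 12.6 ± 7.96 in DTT+TUDCA. The log2 difference from control was -0.95 (SE 0.49, edgeR adjusted p = 0.308) for DTT and -0.83 (SE 0.43, adjusted p = 0.269) for DTT+TUDCA, neither past the threshold. The barley name on the same transcript, hvu-miR5048a_L+2R-2 on Novel08021, had 6, 14 and 19 reads in control, 9, 6 and 5 in DTT and 16, 7 and 10 in DTT+TUDCA. Here too all 3 treatments overlapped (DTT minus control -1.04 on the log2 scale, SE 0.69, edgeR adjusted p = 0.493).

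Novel06234 showed a clearer separation. hvu-miR5048a_L+2R-2 had 18, 16 and 23 reads there in control, 8, 8 and 4 in DTT and 10, 14 and 18 in DTT+TUDCA. Every DTT library lay below every control and every DTT+TUDCA library, with means of 15.9 ± 3.99, 5.28 ± 1.89 and 11.0 ± 3.28 per 10M. The log2 difference between DTT and control was -1.57 (SE 0.60, unadjusted p = 0.00913), the smallest p of any member in that comparison, yet edgeR's adjusted p was 0.129. Between DTT+TUDCA and DTT it was 1.04 (SE 0.56, adjusted p = 0.752). tae-miR5048-5p_L+2R-2 on the same transcript had 7, 7 and 12 reads in control, 4, 3 and 2 in DTT and 3, 7 and 6 in DTT+TUDCA. It too was lower in every DTT library than in any control library (log2 -1.58, SE 0.85, edgeR adjusted p = 0.337), and its DTT+TUDCA libraries also lay below control (-0.78, adjusted p = 0.530). In all 9 libraries it had fewer reads than the barley name on this transcript, and whether the 2 signals hold some of the same reads was not tested.

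The other 3 tested miR5048 signals overlapped between all treatments. hvu-miR5048a_L+2R-2 on Novel11267 had 21, 14 and 12 reads in control, 23, 11 and 8 in DTT and 11, 28 and 24 in DTT+TUDCA. On Novel09793 and Traes_4AL_B8348D56E, which shared their reads, the same small RNA had 5, 12 and 6, then 9, 6 and 2, then 4, 15 and 14. On Traes_5BL_0D0ED345E it had 5, 2 and 13, then 3, 6 and 4, then 2, 10 and 7. Replicates of 1 treatment lay far apart in each, and edgeR's adjusted p ranged over the comparisons from 0.695 to 0.876 for the first, from 0.713 to 0.809 for the second and from 0.864 to 0.938 for the last, which was not tested between DTT and control.

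Among miR5083 signals the rice precursor arms osa-MIR5083-p3_1ss19GT and osa-MIR5083-p5_1ss18GT shared a set of 7 transcripts, 3 on 2AS, 1 on 2BS, 2 on 2DS and 1 on 5BL. The set thus takes in the A, B and D genomes of hexaploid wheat at chromosome group 2, and reads that match all 7 cannot be assigned to 1 of them. The p3 arm had 11, 13 and 9 reads in control, 10, 12 and 7 in DTT and 15, 9 and 14 in DTT+TUDCA. This was among the steadiest strong signals, with 9.09 ± 1.29, 7.65 ± 2.09 and 9.93 ± 2.62 per 10M and overlap throughout (edgeR adjusted p = 0.886, 0.864 and 0.938). The p5 arm had 8, 3 and 7 reads in control, 7, 15 and 7 in DTT and 12, 11 and 9 in DTT+TUDCA. Every DTT+TUDCA library lay above every control library for this arm, with a log2 difference of 0.73 (SE 0.58, edgeR adjusted p = 0.521).

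The remaining tested miR5083 signal was osa-MIR5083-p3_1ss19GT on Traes_1AL_EF31F706D and Traes_1BL_8841FEA7E, with 0, 9 and 2 reads in control, 11, 1 and 4 in DTT and 9, 7 and 5 in DTT+TUDCA. Replicates ran from none to 9 within control alone, and all 3 treatments overlapped. The same small RNA had 12 reads on Traes_1DL_7657153A4, so chromosome group 1 was met on all 3 genomes, though in separate signals.

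In miR5049, the family with the most signals, 1 was strong enough for the tests. tae-MIR5049-p3_2ss11CT18AG on Traes_3AL_0A528281C and Traes_3DL_6165564FD had 5, 7 and 3 reads in control, 14, 12 and 19 in DTT and 5, 14 and 8 in DTT+TUDCA. Every DTT library was above every control library, at 11.8 ± 2.65 against 4.10 ± 1.50 per 10M, while DTT+TUDCA at 7.02 ± 3.47 overlapped both. The log2 difference between DTT and control was 1.50 (SE 0.71, unadjusted p = 0.0353, edgeR adjusted p = 0.239), so it did not pass. Of the 13 members tested between these treatments it was 1 of 2 with a higher mean in DTT, the other being the miR5083 p5 arm on the 7 transcripts. The barley names hvu-MIR5049f-p3_2ss9CT20CT (12 reads) and hvu-miR5049f_L-1R+1 (5 reads) were listed on the same 2 transcripts.

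The barley precursor name MIR5049d was listed in 36 signals with 182 reads in all, and the 2 strongest are given here. hvu-MIR5049d-p5_1ss3TA on Traes_4DL_5C1264C81 had 0, 2 and 4 reads in control, 10, 2 and 0 in DTT and 2, 3 and 5 in DTT+TUDCA. 1 DTT library gave 10 of its 28 reads. hvu-MIR5049d-p3_1ss2TA on Traes_4AL_56CBD7646 had no read in any control library, 2, 5 and 9 in DTT and 1, 1 and 2 in DTT+TUDCA. With 3 counts put in for the control group, the 16 reads in DTT came to 5.07-fold. This figure takes no account of counting error or of the spread between replicates, so it is not a lower bound. The signal passed no filter, and it was picked out here after its values were seen.

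In miR5050, 7 of the 9 signals had 10 reads or more, and all 7 carried 1 name, hvu-MIR5050-p5, a barley precursor arm. Their levels did not run in parallel. On Novel17913 it had 7, 3 and 3 reads in control, 3, 6 and 5 in DTT and 2, 18 and 10 in DTT+TUDCA. The last group held both the lowest and the highest library (log2 difference from control 1.10, SE 0.68, edgeR adjusted p = 0.420). On Traes_4BS_EA294F807 and a 4DS transcript with the same reads it had 9, 4 and 17 in control, 6, 2 and 5 in DTT and 3, 2 and 2 in DTT+TUDCA. On Traes_4AL_8758B00CD it had 8, 4 and 7 in control, 6, 2 and 4 in DTT and 1, 1 and 1 in DTT+TUDCA. For both of these every DTT+TUDCA library lay below every control library, at 1.82 ± 0.449 against 8.50 ± 6.05 per 10M for the first and 0.782 ± 0.0142 against 5.28 ± 1.77 for the second. Neither passed the filter on low counts for that comparison. Between DTT and control, where they did, the log2 differences were -1.28 (SE 0.80, edgeR adjusted p = 0.442) and -0.72 (SE 0.83, adjusted p = 0.714).

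In no library did the 4AL transcript have more hvu-MIR5050-p5 reads than the 4BS and 4DS pair, and in 3 libraries the numbers were equal. Much of 4AL in bread wheat corresponds to the short arms of 4B and 4D, and whether the 50 and 34 reads are in part the same was not tested; their counts differed by 32%, so they were kept apart. 2 untested signals of the same name peaked elsewhere. Novel09814 had 4, 2 and 3 reads in control, 4, 7 and 0 in DTT and 0, 5 and 10 in DTT+TUDCA, and Novel09807 had 0, 1 and 3, then 5, 13 and 3, then 2, 1 and 1. In the latter, DTT libraries were level with or above every library of the other treatments in raw reads.

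The miR5071 family held the single called member. osa-miR5071_1ss15GA, a rice name, on Traes_1BL_DD29F7E69 had 15, 5 and 11 reads in control, 3, 3 and 3 in DTT and 10, 22 and 24 in DTT+TUDCA. All DTT libraries lay below all others, and DTT+TUDCA overlapped control. The level was 8.59 ± 4.09 per 10M in control, 2.37 ± 0.0364 in DTT and 14.6 ± 6.002 in DTT+TUDCA (SD, n = 3 each). It rose between DTT and DTT+TUDCA by 2.58 on the log2 scale (SE 0.60, edgeR adjusted p = 0.0390), and was higher in 3 of 3 DTT+TUDCA libraries. Its 3 reads in each DTT library lay under the filter's minimum count of 5, so only the DTT+TUDCA libraries brought it into this test. The control libraries alone brought it into the test between DTT and control. A signal that enters in this way is more likely to differ. The call between DTT+TUDCA and DTT was lost with TMM scaling (adjusted p = 0.0746), with DESeq2 (0.170) and with no filter on low counts (0.234). It was also lost without any 1 library except DTT+TUDCA replicate 1, and the signal was not tested at a minimum count of 10. Between DTT and control the log2 difference was -1.81 (SE 0.84, unadjusted p = 0.0315, adjusted p = 0.224), and between DTT+TUDCA and control 0.76 (SE 0.46, adjusted p = 0.420). The authors' second read number, described below, divided the reads of this signal by 2.65 to 3, although it lists 1 transcript. Whether the reads belong to that transcript alone was not tested.

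The other miR5071 signals were weaker and showed no shared order. osa-miR5071_1ss15GA on Novel10935 had 1, 8 and 1 reads in control, 5, 2 and 0 in DTT and 0, 3 and 3 in DTT+TUDCA. With the trimmed name osa-miR5071_R-1_1ss15GA, Traes_2BS_782C5F9CD had no control read, 0, 5 and 0 in DTT and 8, 0 and 1 in DTT+TUDCA. Both overlapped between DTT and DTT+TUDCA, unlike the 1BL transcript.

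In miR5054 the strongest signal was bdi-miR5054 on Traes_5DS_C204EBAA9, with 7, 1 and 7 reads in control, 3, 5 and 3 in DTT and 11, 7 and 9 in DTT+TUDCA. Every DTT+TUDCA library was above every DTT library (7.05 ± 1.61 against 2.90 ± 0.946 per 10M), and control overlapped both. The log2 difference was 1.25 (SE 0.66, edgeR adjusted p = 0.752). On Traes_4DS_6701AFC62 the same name had 17 reads, 7 of them in 1 DTT library.

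The 3 smallest of the 9 families had no tested signal. osa-miR5072_L-4 on Traes_3DL_2E5A96ACF led miR5072 with 13 reads, as 3, 0 and 2 in control, 4, 0 and 0 in DTT and 0, 3 and 1 in DTT+TUDCA. bdi-miR5059_L-2_1ss3GC led miR5059 with 13 reads on Traes_1AL_61DFD90BF and a 1BL transcript, as 0, 1 and 0, then 2, 5 and 2, then 1, 2 and 0. osa-MIR5079a-p3_1 led miR5079 with 11 reads on Traes_5AL_4E653044F and its 5BL and 5DL counterparts, as 0 in every control library, then 2, 3 and 4, then 0, 0 and 2. In the last 2 signals most reads came from DTT libraries, at numbers too low for a test. Over the 49 signals of at least 10 reads, 5 had no read in any control library, 0 had none in every DTT library and 0 had none in every DTT+TUDCA library. Besides the MIR5049d, miR5071 and MIR5079a signals named above, these 5 were hvu-miR5048a_L+2R-2 on Novel08274 (5 reads in DTT, 9 in DTT+TUDCA) and osa-MIR5083-p5_1ss18GT on Novel07277 (7 and 6). The same count was not made over all 707 signals of at least 10 reads, so the 5 are no result about these families. Reads over all signals were 5091 to 5863 in control libraries, 4771 to 7038 in DTT and 6502 to 7430 in DTT+TUDCA.

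**Figure D3:**
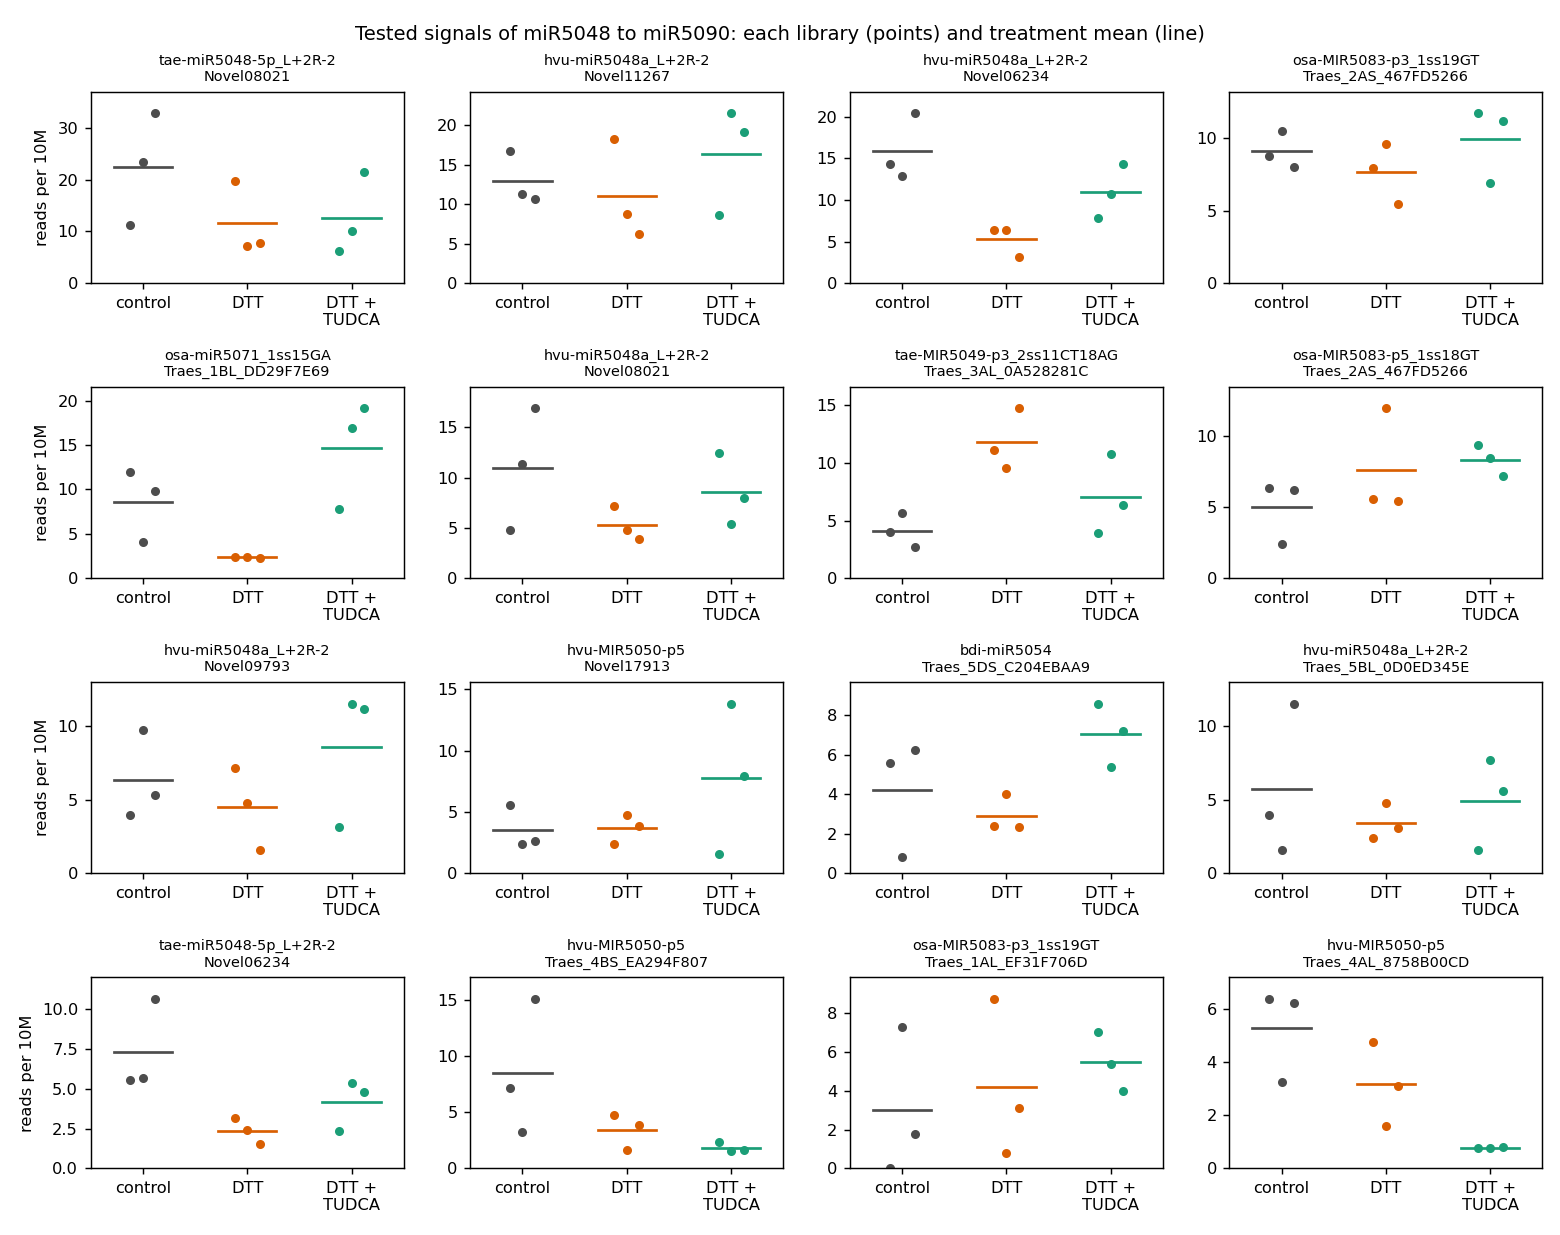
Reads per 10M library reads of the 16 tested signals, with each library as a point and the treatment mean as a line, 1 panel per small RNA and transcript and each vertical axis from 0. The 3 DTT libraries sit together at the bottom for osa-miR5071_1ss15GA on Traes_1BL_DD29F7E69, and they lie above the 3 control libraries for tae-MIR5049-p3_2ss11CT18AG.

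DTT against control gave no called member. Of 13 tested members 0 passed edgeR's adjusted threshold, where 5 of all 156 tested signals did (3.21%), and DESeq2 also called 0 members. At an unadjusted p under 0.05 there were 3 of 13 members against 26 of 156 signals (16.7%), and libraries did not overlap for 4 of 13 members against 34 of 156 (21.8%). With 13 members these counts lay near the shares of all signals. Means were lower in DTT for 11 members and higher for 2, and the median log2 difference was -0.72, against -0.08 over all tested signals. Of the 11, 6 were miR5048 signals, which share small RNA names and in part transcripts, so the 11 are not independent. DTT replicate 3, the library with the fewest signal reads, was the lowest DTT library for 9 of the 13 members. Without it the median was -0.51 over 16 tested members, against 0.03 over all 206 tested signals, and 0 members were called.

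For DTT+TUDCA against control, 0 of 14 tested members passed in edgeR, where 16 of 166 signals did (9.64%), and DESeq2 called 0. At an unadjusted p under 0.05 there were 0 of 14 against 33 of 166 (19.9%), and libraries did not overlap for 2 of 14 against 38 of 166 (22.9%). These 2 were tae-miR5048-5p_L+2R-2 on Novel06234, lower, and the miR5083 p5 arm on 7 transcripts, higher in DTT+TUDCA. Means were lower for 5 members and higher for 9, with a median log2 difference of 0.39 against 0.30 over all tested signals. TMM scaling moved these medians to 0.16 and 0.09, with 6 members lower and 8 higher.

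For DTT+TUDCA against DTT, which asks what the chaperone adds to the reductant, 1 of 13 members passed in edgeR, the miR5071 signal on 1BL, where 2 of 187 signals did (1.07%). That member passed the filter only through its DTT+TUDCA libraries, where it was high. DESeq2 called 0. At an unadjusted p under 0.05 there was the same 1 of 13 against 13 of 187 (6.95%), and libraries did not overlap for 3 of 13 against 29 of 187 (15.5%). Means were higher in DTT+TUDCA for 12 members and lower for 1, tae-MIR5049-p3_2ss11CT18AG (log2 -0.74, SE 0.53, adjusted p = 0.752), with a median log2 difference of 0.56 against 0.26 over all tested signals. TMM scaling moved these medians to 0.33 and -0.01, with 10 members higher and 3 lower. This comparison and DTT against control share the 3 DTT libraries, so a low DTT value moves both. By the species of the strongest line, the tested signals were 8 barley, 4 rice, 3 wheat and 1 Brachypodium, and by kind 9 mature and 7 precursor arm names. The single call was on a mature rice name, and that signal also lists osa-miR5071_R-1_1ss15GA.

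**Figure D4:**
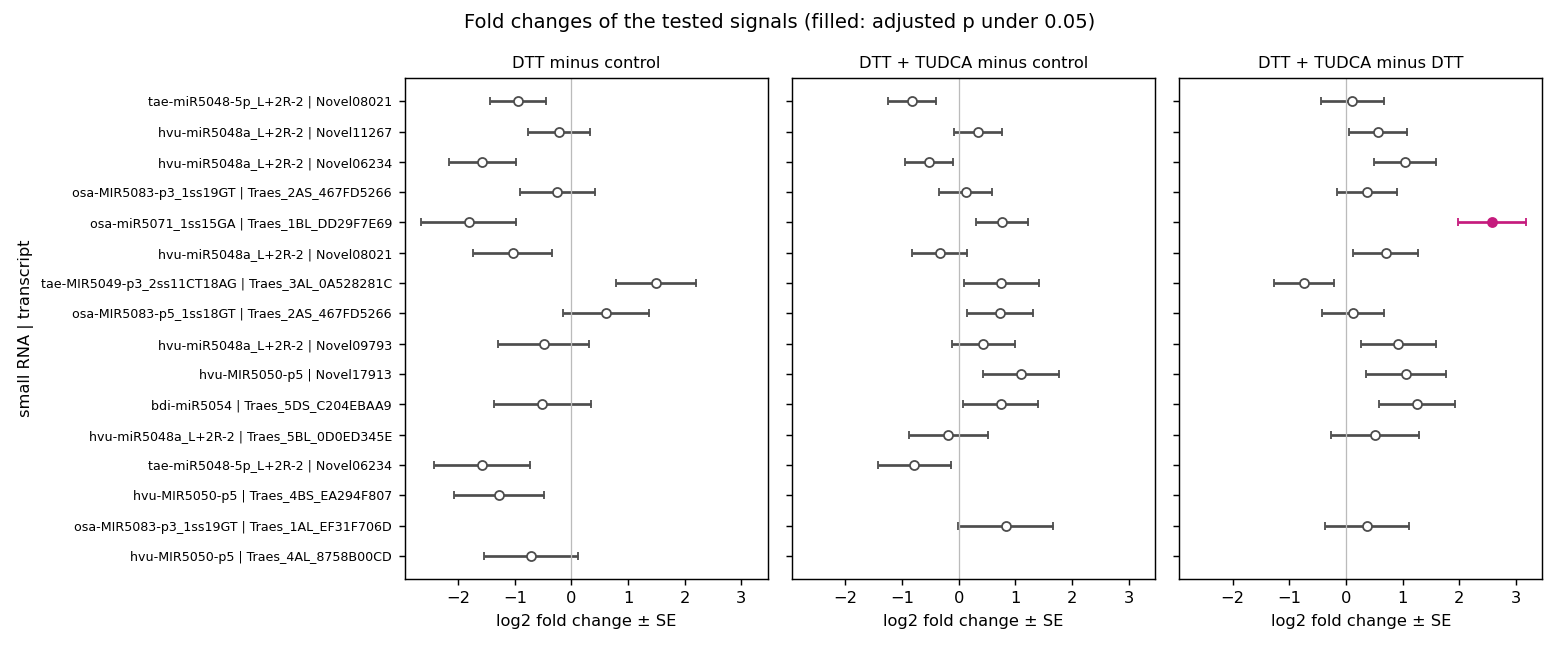
Log2 fold change ± SE of the tested member signals in the 3 comparisons, from edgeR, ordered from most to fewest reads; a missing point is a signal that did not pass the filter there. The filled point is the single called signal, osa-miR5071_1ss15GA at 2.58 between DTT+TUDCA and DTT.

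Other features of the 49 signals with 10 reads or more were read from the tables without using treatment. On 1 transcript alone stood 27 of them, and 15 stood on unplaced names alone. Arms of 2 or more wheat genomes within 1 chromosome group were found for 16, and of all 3 genomes for 6, among them hvu-MIR5050-p5 on 2AL, 2BL and 2DL, bdi-miR5054 on 7AL, 7BL and 7DL and osa-MIR5079a-p3_1 on 5AL, 5BL and 5DL. The authors' second read number divides the raw reads, and for 25 of the 49 the divisor equalled the number of transcripts listed in the signal. These 25 include the 13 for which the divisor was 1, each on 1 transcript, and the highest divisor was 9. For 31 of the 49 no small RNA outside the range was listed on the same transcripts. The strongest outside pair on a member's transcript was tae-miR1122b-3p_1ss11GT with 76 reads, on those of hvu-MIR5049d-p5_1ss3TA. Only weak member signals were merged with names outside the range: 21 of 256, each of 8 reads or fewer.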

How the data were processed

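Degradome libraries of 9 wheat leaf samples were sequenced from 5′-monophosphate ends, single-end on an Illumina HiSeq instrument, per the labels' protocols. The mapper, the target caller and the build were not given in the sources used here. GEO lists 1 sample per treatment, and the 3 deposited tables, 1 per pair of treatments, hold 3 libraries of each. Library columns were tied to treatments by the table headers and to biological replicates by the series' design text. Per the file headers, each library has a raw degradome count, a second read number called normalized that need not be whole (treated as an expected count), and a signal scaled to a fixed library total (TPB). The authors' scaled signal divided by their second number gave the library reads. A pair not listed in a table was taken as 0 reads there, and no count differed between tables. 3 pairs listed more than once, 0 of them members, were left out.

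Lines sharing a small RNA or transcript were merged where summed count differences were at most 20% of the stronger line. The strongest line stands for a signal. edgeR 4.0.16 (R 4.3.3) fitted quasi-likelihood models to the 2 treatments compared, with library reads as library sizes, over all signals passing filterByExpr (minimum count 5, total 10). P-values were Benjamini-Hochberg adjusted over all signals tested. DESeq2 1.42.0 was an alternative. The pipeline was tested on simulated data. Named were families with 10 reads or more, every tested signal, the strongest signal of each such family and the signals on either side of the filter; other signals were chosen after their values were seen. The members and lists were chosen with earlier results of these data known. Same-numbered libraries showed correlations of deviations from -0.256 to 0.105 over 210 signals, so replicate numbers were not taken as pairs. With 3 libraries per treatment and few reads per signal, counting error is large.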

Additional observations from a re-analysis of the deposited data

How the results depend on the processing

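Between DTT+TUDCA and DTT the members called were 1 by the reported settings and 0 with TMM scaling, DESeq2, no filter on low counts, a minimum count of 10 or a replicate block, and 0 to 1 when 1 library was left out. For osa-miR5071_1ss15GA on Traes_1BL_DD29F7E69 the adjusted p was 0.0832 with the replicate block (log2 2.51), 0.106, 0.0753 and 0.186 without DTT replicates 1 to 3, and 0.0352, 0.299 and 0.541 without DTT+TUDCA replicates 1 to 3. It kept its call with merging at 5% (adjusted p = 0.0321), merging of identical counts alone (0.0308) and 1 fit of all 3 treatments (0.0180), and its log2 difference stayed between 2.25 and 2.88 over these fits. The replicate block changed no other member's call. Between DTT+TUDCA and control 0 to 1 members were called when 1 library was left out: without control replicate 2, hvu-MIR5050-p5 on Traes_4BS_EA294F807 passed the filter and fell by 2.54 on the log2 scale (adjusted p = 0.0488). DTT against control gave 0 calls in every alternative run. With every listed line counted, the members held 5155 reads (1.28% of such reads; 441, 426 and 509 per 10M in control, DTT and DTT+TUDCA), and 2 of 9 families kept their place. With the authors' second read number they held 1444 reads (134, 111 and 140.5 per 10M), miR5048 stayed first and miR5083 moved to place 4. Merging at 5% or of identical counts gave 2590 reads with all 9 families in place, and leaving out 1 library 2051 to 2203. Of the single-signal alternatives 510 kept direction and side of the threshold, 9 lost the call and 18 turned sign, 0 of these past the threshold. With TMM and DESeq2 the signs turned to -0.0806 and -0.0934 for osa-MIR5083-p3_1ss19GT on Traes_2AS_467FD5266 (DTT+TUDCA minus control), and between DTT+TUDCA and DTT to -0.16 and -0.21 for osa-MIR5083-p5_1ss18GT on that transcript and -0.14 and -0.20 for tae-miR5048-5p_L+2R-2 on Novel08021. Leaving out 1 library turned 12 signs. With 1 library left out, log2 values ran from -0.78 to 0.0638 for hvu-miR5048a_L+2R-2 on Novel11267 (DTT minus control). For DTT+TUDCA minus control they ran from -0.70 to 0.10 for that small RNA on Novel08021, from -0.65 to 0.80 on Traes_5BL_0D0ED345E, and from -0.0137 to 0.33 for osa-MIR5083-p3_1ss19GT on Traes_2AS_467FD5266. For DTT+TUDCA minus DTT they ran from -0.11 to 1.43 for osa-MIR5083-p3_1ss19GT on Traes_1AL_EF31F706D, from -0.0711 to 0.59 for osa-MIR5083-p5_1ss18GT on Traes_2AS_467FD5266 and from -0.51 to 0.74 for tae-miR5048-5p_L+2R-2 on Novel08021. The causes were not tested. Depth limits all of this: 240 of 256 signals did not pass the filter on low counts in any comparison.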
